A study of Mus musculus with 42 samples.

Results

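The comparison described here set the intima of mice given anti-Gr1 and exposed to low flow for 48 hr against the intima of mice given non-specific IgG and exposed to high flow. Its members were chosen by treatment and artery side, as the sample labels give them, and comprised 4 of the 42 libraries of the series, with 2 pools on each side. The mice were male C57BL/6J, used at 6 to 7 weeks. Anti-Gr1 was injected into the peritoneum at 25 ug per mouse, 24 hr before partial ligation of the left carotid artery. Non-specific IgG was the control for both antibodies of the series, whose schedules differed, and the schedule of the IgG pools is not given in the sources used here. Ligation lowers flow in the left artery and raises it in the contralateral artery, so the low-flow pools came from ligated arteries and the high-flow pools from contralateral ones. Each pool combined the RNA flushed from the intima of 3 to 5 arteries, and was sequenced from polyA-selected RNA with paired 150 bp reads. A pool is an average over mice, and the p-values given measure the spread between pools. In the main fit that spread was estimated over all 7 groups of treated mice, and not from the groups compared alone.

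Endothelial cells sense the drag of flowing blood. Under steady high flow they express the transcription factors Klf2 and Klf4 and their targets, which keep vessels dilated and resistant to clotting and inflammation. Under low and disturbed flow this programme falls, chemokines and adhesion molecules appear, and monocytes and neutrophils enter the intima. Gr1 is an epitope carried by Ly6G, a surface protein of neutrophils, and by Ly6C, which inflammatory monocytes carry as well, and antibodies to it are used to remove neutrophils. The comparison asks which part of the response to low flow is seen in arteries of such mice.

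The anti-Gr1 pools had 17640543 and 15745631 counts on genes and the IgG high-flow pools 12286104 and 13611144. The IgG low-flow pools, against which anti-Gr1 is compared at the same flow, had 16474222 and 19035957. No pool combined anti-Gr1 with high flow, so flow and antibody changed together in the main comparison. The headers of the deposited table also place all low-flow pools of treated mice under the number prefix 160125 and all their high-flow pools under 160613. What the prefixes stand for is not given in the sources used here. Flow, antibody and prefix therefore cannot be told apart in it. The untreated low-flow and high-flow pools, 3 on each side, carry 1 prefix, 140624, and are quoted beside it. PBS liposome pools, 2 at each flow, carry the same split of prefixes as the antibody pools. In intimal RNA, fewer cells of a type and less RNA per cell cannot be told apart.

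None of the 11 endothelial markers tested was at 0 counts in any of the 6 antibody pools, which does not by itself identify the tissue. They took 0.905% and 1.01% of all counts with anti-Gr1, 0.675% and 0.552% in the IgG low-flow pools and 1.84% and 1.85% in the IgG high-flow pools. Neutrophil markers took 0.00258% and 0.00445% of counts in the anti-Gr1 pools. The corresponding shares were 0.0508% and 0.0194% in the IgG low-flow pools and 0.000806% and 0.00683% in the IgG high-flow pools. The anti-Gr1 pools lay below both IgG low-flow pools and between the high-flow pools, which differed, with 5 of 11 neutrophil markers at 0 counts in replicate 1 and none in replicate 2. Low shares were not particular to anti-Gr1, as the low-flow pools given anti-GPIba, which depletes platelets, had 0.000816% and 0.00158% and those given clodronate liposomes, which deplete macrophages, 0.00351% and 0.00428%. Macrophage and monocyte markers took 0.107% and 0.127% of counts with anti-Gr1, which lay between the IgG low-flow pools at 0.251% and 0.224% and the IgG high-flow pools at 0.0078% and 0.0266%. Smooth muscle markers took 0.1804% and 0.623% of counts with anti-Gr1, against 0.437% and 0.472% in IgG low-flow pools and 0.0509% and 0.0766% in IgG high-flow pools. At the depth of anti-Gr1 replicate 1, the 95% Wilson interval of its neutrophil share ran from 0.00235% to 0.00283%, which covers counting error only. The part of these marker shares in the changes described below was not tested.

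**Figure D1:**
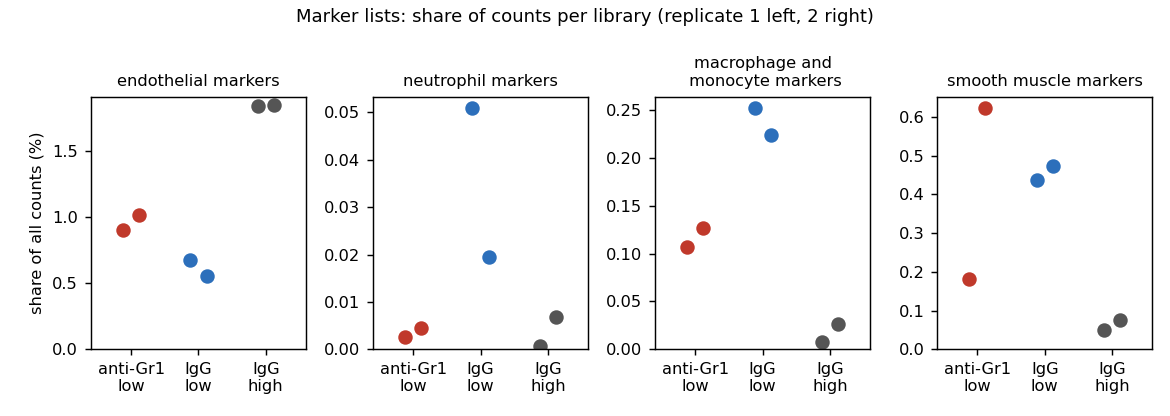
Share of all counts (%, y axis) taken by each of 4 marker lists in the anti-Gr1 low-flow, IgG low-flow and IgG high-flow pools, with 1 point per pool, replicate 1 on the left and replicate 2 on the right. The anti-Gr1 pools lie at 0.00258% and 0.00445% for neutrophil markers, below both IgG low-flow pools, while for smooth muscle markers they lie at 0.1804% and 0.623%, on either side of them.

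Of 13401 genes tested by edgeR between the anti-Gr1 low-flow and the IgG high-flow pools, 1753 (13.1%) had an adjusted p under 0.05. Of these, 995 (7.42% of the genes tested) were higher and 758 (5.66%) lower at low flow. Over all genes tested the median log2 fold-change was 0.06, and it was 0.07 between IgG low and high flow and −0.07 in untreated mice. Between the IgG low-flow and the same IgG high-flow pools, 5422 genes (40.5%) were called, 3053 (22.8%) higher and 2369 (17.7%) lower. Between the anti-Gr1 and the IgG pools at low flow, no gene (0%) passed the adjusted threshold in edgeR, while 2432 (18.1%) passed 0.05 before adjustment. Anti-Gr1 was the higher side at 1038 of these (7.75%) and the lower side at 1394 (10.4%). DESeq2 called 142 genes in that last comparison, 70 higher and 72 lower with anti-Gr1, and edgeR called 225 when the 2 groups were fitted alone, 9 higher and 216 lower. The 3 comparisons share libraries, so their values are set side by side and not combined.

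The count of 1753 rested on few pools. Without IgG high-flow replicate 1 it was 432, and without replicate 2 it was 1026. Leaving out anti-Gr1 replicate 1 gave 1021 genes, 723 higher and 298 lower, and leaving out replicate 2 gave 1335, 587 higher and 748 lower. When the anti-Gr1 pools were compared with the PBS liposome high-flow pools in place of the IgG ones, 758 genes were called, and 558 of these were among the 1753, 555 of them in the same direction. Between the IgG and PBS high-flow pools themselves, 40 genes differed.

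**Figure D2:**
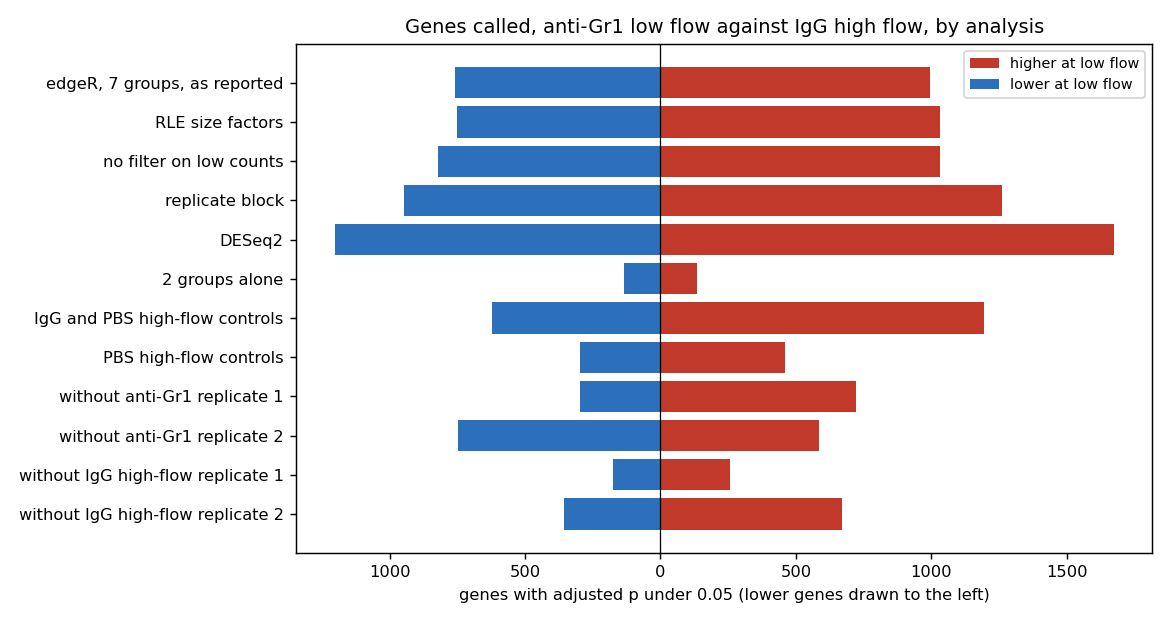
Number of genes with an adjusted p under 0.05 between the anti-Gr1 low-flow and the high-flow pools (x axis), drawn to the right when higher and to the left when lower at low flow, for the analysis reported and 11 alternatives (y axis). The analysis reported gives 995 higher and 758 lower genes, and the alternatives range from 267 genes with the 2 groups fitted alone to 2874 with DESeq2.

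Untreated mice share no library with this comparison. There, 5491 of 11546 genes (47.6%) were called between low and high flow, 2790 (24.2%) higher and 2701 (23.4%) lower. Among the 11448 genes tested in both, 616 were called higher in both, which is 73.5% of the 838 higher genes of the anti-Gr1 comparison and 22.1% of the 2785 of the untreated one. Likewise 506 genes were lower in both, or 68.6% of the 738 and 18.9% of the 2677. For genes called higher in untreated mice, the median log2 fold-change was 0.77 with anti-Gr1 and 1.48 between IgG low and high flow, and for those called lower it was −0.48 and −0.96. The medians of the same genes in untreated mice, 1.40 and −1.11, come from the values that chose them. In the PBS liposome pools, 4692 genes (35%) were called, 2621 (19.6%) higher and 2071 (15.5%) lower. Of these, 751 higher genes (28.7% of that list and 75.5% of the 995) and 584 lower genes (28.2% and 77.0% of the 758) were also called with anti-Gr1. The PBS and antibody pools share the split of header prefixes by flow.

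Genes of the shear stress programme were lower at low flow in the anti-Gr1 pools, and so were most endothelial markers. Of the 11 endothelial markers 4 fell and none rose, against 5.66% and 7.42% of all genes tested. Their median log2 fold-change was −0.65, or −0.32 against the PBS high-flow pools. Of 24 shear stress genes tested, 9 fell and 3 rose, against the same shares of all genes. Their median log2 fold-change was −0.72, or −1.15 without anti-Gr1 replicate 2 and −0.50 against the PBS high-flow pools. Without high-flow replicate 1 the counts were 5 and 1. Klf2 (chr8:74842932-74845555 in the NCBIM37 assembly), the main transcription factor of endothelial cells under steady shear, had 67.9 and 47.9 FPKM in the 2 anti-Gr1 pools and 679 and 932 in the IgG high-flow pools. The groups did not overlap, and Klf2 fell with a log2 fold-change of −3.88 ± 0.56 (SE, edgeR adjusted p = 0.00526). Klf4 (chr4:55540013-55545347), its close relative, had 7.92 and 4.27 FPKM against 43.3 and 70.9, and fell with a log2 fold-change of −3.32 ± 0.59 (SE, edgeR adjusted p = 0.00805). Nos3, which makes endothelial nitric oxide, had 147 and 136 FPKM against 524 and 397, and fell with a log2 fold-change of −1.77 ± 0.27 (SE, edgeR adjusted p = 0.00575). In each of these 3 genes both anti-Gr1 pools lay below both high-flow pools, as they did at 22% of all genes tested. The IgG low-flow pools had 105 and 23.2 FPKM of Klf2, 6.55 and 2.28 of Klf4 and 134 and 93.5 of Nos3, and the differences between anti-Gr1 and IgG at low flow were −0.13, 0.48 and 0.33 on the log2 scale, none of them called.

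Other shear genes fell as well. The morphogen Dhh had 46.4 and 43.3 FPKM with anti-Gr1 and 215 and 195 at high flow (log2 fold-change −2.27 ± 0.20 SE, edgeR adjusted p = 0.00179). Calcrl, a receptor for adrenomedullin and calcitonin gene-related peptide, had 26.9 and 18.3 FPKM against 81.2 and 90.9 (log2 fold-change −2.01 ± 0.23 SE, edgeR adjusted p = 0.00431). Gja5, the connexin of arterial endothelium, had 248 and 167 against 558 and 490.2 FPKM and fell by 1.41 on the log2 scale (edgeR adjusted p = 0.0160). The genes that rose encode vasoactive and channel proteins. Edn1, the precursor of the vasoconstrictor endothelin, had 456 and 749 FPKM against 74.6 and 118 (log2 fold-change 2.58 ± 0.52 SE, edgeR adjusted p = 0.0117). Ptgs2, the inducible cyclooxygenase, had 23.8 and 253 against 3.01 and 2.48 FPKM (log2 fold-change 5.63 ± 1.04 SE, edgeR adjusted p = 0.00901), and the connexin Gja4 had 566 and 379 against 209 and 101 (log2 fold-change 1.54 ± 0.35 SE, edgeR adjusted p = 0.0181). Thbd, the thrombin receptor thrombomodulin and a Klf2 target, was not called, with 77.3 and 257 FPKM against 218 and 266 (log2 fold-change −0.57 ± 0.60 SE, edgeR adjusted p = 0.548). The pools disagreed there, since anti-Gr1 replicate 2 lay among the high-flow pools and replicate 1 just above the IgG low-flow pools at 76.9 and 36.0. Klf2, Klf4, Nos3, Dhh and Calcrl kept their call whichever of the 4 pools was left out. Edn1 lost it without IgG high-flow replicate 1 (edgeR adjusted p = 0.0932), Ptgs2 without either high-flow pool (up to 0.0701), Gja4 without anti-Gr1 replicate 1 or high-flow replicate 2 (up to 0.0867) and Gja5 without anti-Gr1 replicate 2 or high-flow replicate 1 (up to 0.0778).

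**Figure D3:**
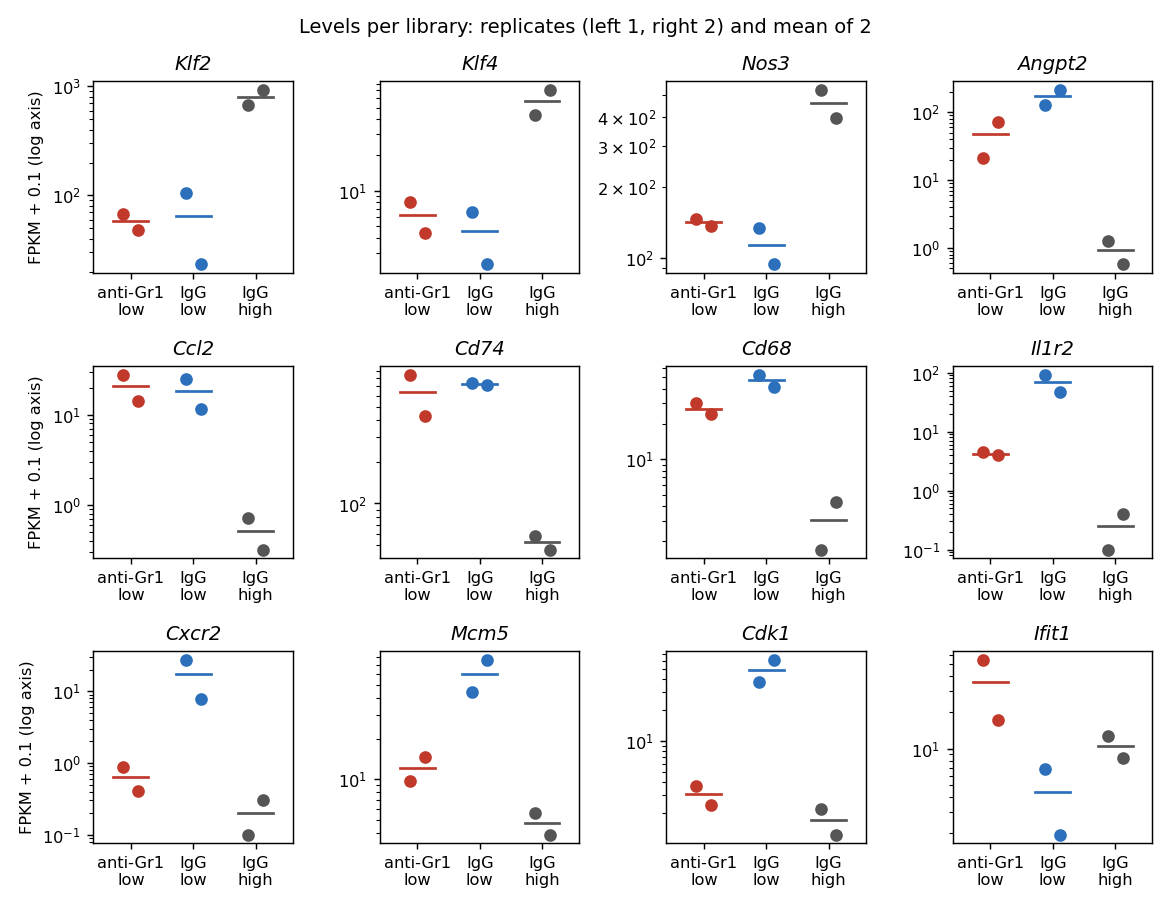
Level (FPKM + 0.1, log y axis) of 12 genes in the anti-Gr1 low-flow, IgG low-flow and IgG high-flow pools, with 1 point per pool (replicate 1 left, replicate 2 right) and a bar at the mean of 2. Klf2, Klf4 and Nos3 lie low and Angpt2, Ccl2, Cd74 and Cd68 high in both low-flow groups, while Cxcr2, Mcm5 and Cdk1 lie with anti-Gr1 closer to the high-flow pools than to the IgG low-flow pools.

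Genes of Notch signalling and arterial identity showed the same direction. Of 17 tested, 7 fell and 1 rose, against 5.66% and 7.42% of all genes tested, with a median of −1.07. Only 4 fell without anti-Gr1 replicate 1 (median −0.70) or without either high-flow pool, and 3 against the PBS high-flow pools (median −0.34). The Notch ligand Dll1 had 9.23 and 5.74 FPKM with anti-Gr1 and 59.4 and 63.1 at high flow, and fell with a log2 fold-change of −3.11 ± 0.44 (SE, edgeR adjusted p = 0.00526). Jag2, another ligand, was a weakly expressed gene with 0.261 and 0.374 against 2.87 and 1.95 FPKM (log2 fold-change −2.98 ± 0.63 SE, edgeR adjusted p = 0.0144). Hes1, a transcriptional target of Notch, had 12.01 and 15.4 against 49.3 and 63.0 FPKM (log2 fold-change −2.10 ± 0.37 SE, edgeR adjusted p = 0.00798). Efnb2, the ligand that marks arterial endothelium, had 30.1 and 40.4 against 117 and 127 FPKM (log2 fold-change −1.85 ± 0.33 SE, edgeR adjusted p = 0.00786). In all 4 genes both anti-Gr1 pools lay below both high-flow pools, and at low flow with IgG they had 10.6 and 5.15, 0.404 and 0.390, 17.0 and 28.9 and 28.8 and 26.7 FPKM. The member that rose was Nr2f2, a regulator of venous identity, at 0.212 and 0.126 FPKM against no counts in either IgG high-flow pool, which is at least 2.92-fold higher against a floor of 3 counts per library. That call was lost against the PBS high-flow pools, where its log2 fold-change was −0.02. Without anti-Gr1 replicate 1 or IgG high-flow replicate 1, Jag2 was no longer called (edgeR adjusted p up to 0.0769), and Nr2f2 was lost without any pool but anti-Gr1 replicate 2 (up to 0.0970). Dll1, Hes1 and Efnb2 were called in each of these fits.

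The receptors of the angiopoietins fell and their ligand rose. Tek, the receptor of both angiopoietins, had 99.9 and 91.8 FPKM with anti-Gr1 and 294 and 299 at high flow (log2 fold-change −1.70 ± 0.26 SE, edgeR adjusted p = 0.00575), and Tie1, its partner, had 136 and 176 against 306 and 256 (log2 fold-change −0.91 ± 0.25 SE, edgeR adjusted p = 0.0375). Angpt2 (chr8:18690263-18741562), which destabilises vessels, had 21.1 and 72.9 FPKM against 1.19 and 0.473, and rose with a log2 fold-change of 5.80 ± 1.06 (SE, edgeR adjusted p = 0.00889). With IgG at low flow it had 129 and 215 FPKM, above both anti-Gr1 pools, and the difference between anti-Gr1 and IgG was −1.83 ± 0.85 on the log2 scale (SE, edgeR unadjusted p = 0.0531, adjusted p = 0.279). Nrp2, a coreceptor of VEGF in veins and lymphatics, was at the edge of detection, at 0.0996 and 0.851 FPKM against no counts, at least 9.31-fold higher (edgeR adjusted p = 0.0224). Over the list of 21 angiopoietin, VEGF and tip cell genes 5 rose and 2 fell, against 7.42% and 5.66% of all genes tested, with a median of 1.53. None rose without high-flow replicate 1, and 2 rose without high-flow replicate 2 (median 0.69), without anti-Gr1 replicate 2 (median 0.47) or against the PBS high-flow pools (median 0.45). The median without anti-Gr1 replicate 1 was 0.93. Angpt2 lost its call without either high-flow pool (edgeR adjusted p up to 0.0555), and Tie1 without anti-Gr1 replicate 1 or either high-flow pool (up to 0.169). Nrp2 lost it without anti-Gr1 replicate 2 or either high-flow pool (up to 0.0996), and Tek kept it throughout.

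Junction and adhesion genes moved in both directions. Of 10 junction genes 2 rose and 2 fell (median −0.30), and of 11 leukocyte adhesion molecules 2 rose and 3 fell (median 0.13), against 7.42% higher and 5.66% lower among all genes tested. Against the PBS high-flow pools both medians changed sign, to 0.13 for junction genes and −0.16 for adhesion molecules. The adhesion median was −0.11 without anti-Gr1 replicate 1 and 0.34 without anti-Gr1 replicate 2. Without high-flow replicate 1, 1 junction gene was called higher and none lower, and without high-flow replicate 2 none higher and 1 lower. Of the adhesion molecules 1 was called, as lower, without either high-flow pool or without anti-Gr1 replicate 2. Pecam1 had 1144 and 1264 FPKM with anti-Gr1 and 2775 and 2984 at high flow (log2 fold-change −1.33 ± 0.33 SE, edgeR adjusted p = 0.0263), the adhesion molecule Icam2 477 and 234 against 847 and 674 (log2 fold-change −1.18 ± 0.32 SE, edgeR adjusted p = 0.0335) and Jam2 66.6 and 41.2 against 189.7 and 164 (log2 fold-change −1.79 ± 0.33 SE, edgeR adjusted p = 0.00904). Tjp1, the scaffold of tight junctions, had 11.2 and 20.6 against 31.4 and 44.9 FPKM (log2 fold-change −1.32 ± 0.37 SE, edgeR adjusted p = 0.0381). Cdh5, which encodes VE-cadherin, was not called, at 26.8 and 39.7 against 51.3 and 48.8 FPKM (log2 fold-change −0.65 ± 0.25 SE, edgeR adjusted p = 0.109). The connexin Gja1 rose from 1.15 and 1.94 FPKM to 9.92 and 36.9 (log2 fold-change 3.87 ± 1.15 SE, edgeR adjusted p = 0.0474), and Jam3 from 4.29 and 5.27 to 8.38 and 13.1 (log2 fold-change 1.11 ± 0.31 SE, edgeR adjusted p = 0.0408).

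Icam1, the ligand of leukocyte integrins, stood higher with anti-Gr1 than in either other group. It had 508 and 525 FPKM with anti-Gr1, 282 and 211 with IgG at low flow and 249.5 and 196 with IgG at high flow. The anti-Gr1 pools lay above all 4 others, and Icam1 rose with a log2 fold-change of 1.15 ± 0.32 (SE, edgeR adjusted p = 0.0395) against high flow. The IgG low-flow pools overlapped the high-flow pools (log2 fold-change 0.06 ± 0.32 SE, edgeR adjusted p = 0.887), and the difference between anti-Gr1 and IgG at low flow was 1.09 ± 0.32 on the log2 scale (SE, edgeR unadjusted p = 0.00590, adjusted p = 0.243). Vcam1, another such ligand, had 1119 and 842 FPKM with anti-Gr1, 650.3 and 509.8 with IgG at low flow and 433 and 559 at high flow, and was not called (log2 fold-change 0.90 ± 0.32 SE, edgeR adjusted p = 0.0834). Sele, which encodes E-selectin, had 28.4 and 124, 94.2 and 86.3 and 6.15 and 22.8 FPKM in the same order and was not called either (log2 fold-change 2.35 ± 0.90 SE, edgeR adjusted p = 0.102). In untreated mice the log2 fold-changes of Icam1, Vcam1 and Sele with low flow were 0.55 (edgeR adjusted p = 0.0575), 0.70 (edgeR adjusted p = 0.0534) and 4.18 (edgeR adjusted p = 1.66e-04). Of the calls in these 2 paragraphs, only that of Jam2 was kept whichever pool was left out. Icam1, Pecam1 and Gja1 lost theirs without any 1 of the 4 pools (edgeR adjusted p up to 0.158, 0.116 and 0.209), Icam2 and Jam3 without anti-Gr1 replicate 2 or either high-flow pool (up to 0.145 and 0.187), and Tjp1 without anti-Gr1 replicate 1 or either high-flow pool (up to 0.176). Against PBS high-flow pools the log2 fold-change of Tjp1 was 0.03.

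Chemokines and cytokines held more called members than any other list examined. Of 28 tested, 18 rose and none fell, against 7.42% and 5.66% of all genes tested, and their median log2 fold-change was 2.79 with 10 members at their lower bound, since these had no counts at high flow. Ccl2 (chr11:81849073-81850955), the attractant of Ccr2-bearing monocytes, had 27.5 and 14.2 FPKM with anti-Gr1, 24.7 and 11.3 with IgG at low flow and 0.615 and 0.222 at high flow, and rose with a log2 fold-change of 5.54 ± 0.74 (SE, edgeR adjusted p = 0.00526). Its neighbour Ccl7, named after its values were seen, had 20.6 and 21.3 FPKM against 0 and 0.337, which is 118-fold (95% counting interval 40.1 to 574) higher, and 26.6 and 13.8 with IgG at low flow. For both chemokines the ranges of the 2 low-flow groups overlapped, with differences of 0.22 and 0.07 on the log2 scale. Cxcl5 (chr5:91188325-91190651) and Cxcl3 (chr5:91215129-91217112), attractants of neutrophils, had 4.84 and 9.29 and 3.00 and 3.07 FPKM with anti-Gr1 and no counts in either high-flow pool, at least 46.0-fold and 11.4-fold higher (edgeR adjusted p = 0.00924 and 0.0323). Spp1, the secreted protein osteopontin, had 102 and 167 FPKM against 1.54 and 3.42 (log2 fold-change 5.69 ± 0.89 SE, edgeR adjusted p = 0.00593), and Cx3cl1, a chemokine tethered to endothelium, had 86.3 and 103 against 26.3 and 17.0 (log2 fold-change 2.07 ± 0.37 SE, edgeR adjusted p = 0.00842). These 2 genes were also named after their values were seen.

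Of the interleukin-1 family, Il1b (chr2:129190306-129196875) had 12.5 and 8.91 FPKM with anti-Gr1, 188 and 47.2 with IgG at low flow and no counts at high flow. It was at least 54.5-fold higher with anti-Gr1 than at high flow (edgeR adjusted p = 0.00908), and the difference from IgG at low flow was −3.44 ± 0.82 on the log2 scale (SE, edgeR unadjusted p = 0.00178, adjusted p = 0.243). The receptor antagonist Il1rn had 3.10 and 2.13 FPKM with anti-Gr1, 21.1 and 5.78 with IgG at low flow and 0.108 and 0 at high flow, 51.7-fold (95% counting interval 17.4 to 253) higher than at high flow (edgeR adjusted p = 0.0257). Il6 was split between the anti-Gr1 pools, at 0.301 and 4.98 FPKM against no counts at high flow (edgeR adjusted p = 0.0495). Ccl2, Ccl7, Spp1 and Cx3cl1 were called whichever pool was left out. Without IgG high-flow replicate 1 only 7 chemokines and cytokines were called, and without replicate 2 only 9. Il1b and Cxcl5 were lost without high-flow replicate 1 (edgeR adjusted p = 0.0568 and 0.0559), Cxcl3 without any 1 pool (up to 0.122), Il6 without anti-Gr1 replicate 2 or either high-flow pool (up to 0.195) and Il1rn without anti-Gr1 replicate 1 or either high-flow pool (up to 0.114).

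Promoters of this list were searched for a kappaB site, the sequence that NF-kappaB binds. This search and the promoter searches below used the lists, which group genes by role, and no expression values. The shares found therefore describe the lists and not these pools. The letters searched were GGGA, any base and TTTCC, on both strands, in the 300 bases from 250 before to 50 after the start that RefSeq gives in GRCm38.p6. They were found in 5 of the 23 chemokine and cytokine promoters that could be matched (21.7%), those of Cxcl1, Cxcl2, Cxcl3, Il6 and Csf1, and in 0.385% of all 27025 promoters. The promoter of Cxcl3 is shown as an example, with the match in capitals. It lies on the plus strand at chr5:90785851-90786150 of GRCm38.p6.
Cxcl3: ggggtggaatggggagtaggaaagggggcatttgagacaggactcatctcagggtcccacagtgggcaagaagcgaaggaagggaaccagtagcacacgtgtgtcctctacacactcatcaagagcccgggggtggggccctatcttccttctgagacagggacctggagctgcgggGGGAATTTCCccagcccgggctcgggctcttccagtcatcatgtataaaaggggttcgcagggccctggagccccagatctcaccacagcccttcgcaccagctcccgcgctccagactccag

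Monocytes and macrophages were represented in the anti-Gr1 pools. Of 14 macrophage and monocyte markers 7 rose and none fell, against 7.42% and 5.66% of all genes tested, with a median of 2.80, and 4 rose without high-flow replicate 1 (median 2.21). Cd68, a lysosomal protein of macrophages, had 29.8 and 24.03 FPKM with anti-Gr1, 52.2 and 41.4 with IgG at low flow and 1.60 and 4.25 at high flow (log2 fold-change 3.11 ± 0.45 SE, edgeR adjusted p = 0.00526). Ccr2, the receptor of Ccl2, had 24.4 and 21.5, 47.2 and 37.5 and 0 and 1.56 FPKM in the same order (log2 fold-change 4.76 ± 0.98 SE, edgeR adjusted p = 0.0134). For both genes the anti-Gr1 pools lay between the other groups without overlap. The scavenger receptor Msr1 rose by 4.21 on the log2 scale (edgeR adjusted p = 0.0160), with 9.90 and 8.64 FPKM against 0.0633 and 0.857, and the Fc receptor Fcgr1 by 3.63 (edgeR adjusted p = 0.0140), with 3.64 and 3.51 against 0.466 and 0.0901. Emr1, which encodes F4/80, had 5.34 and 5.10 FPKM against 0.0525 and 1.75 and was not called (log2 fold-change 2.43 ± 0.94 SE, edgeR adjusted p = 0.105), nor was Itgam, which encodes CD11b, at 3.35 and 9.11 against 0.395 and 1.25 (log2 fold-change 2.86 ± 0.87 SE, edgeR adjusted p = 0.0518). The high-flow pools differed at Emr1 and Ccr2, where replicate 2 lay above replicate 1. Ptprc, which encodes the leukocyte protein CD45, rose from 1.89 and 2.601 FPKM to 9.58 and 10.1 (log2 fold-change 2.05 ± 0.53 SE, edgeR adjusted p = 0.0302), and had 34.1 and 25.1 with IgG at low flow. Cd68 and Ccr2 kept their calls whichever pool was left out, whereas Ptprc lost its call without any 1 pool (edgeR adjusted p up to 0.158), Msr1 without high-flow replicate 1 (0.0707) and Fcgr1 without high-flow replicate 2 (0.0519).

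Genes of MHC class II presentation, by which myeloid and some endothelial cells show antigen to T cells, had 7 of 8 members higher, against 7.42% of all genes tested, with a median of 3.83, and 4 of 8 higher without high-flow replicate 1 (median 3.79). H2-Ab1 had 523 and 196 FPKM with anti-Gr1, 481 and 396 with IgG at low flow and 23.5 and 11.6 at high flow (log2 fold-change 4.28 ± 0.66 SE, edgeR adjusted p = 0.00587). H2-Eb1 had 197 and 68.3 against 9.66 and 4.67 FPKM (log2 fold-change 4.13 ± 0.70 SE, edgeR adjusted p = 0.00700). Cd74, the invariant chain, had 845 and 426 FPKM with anti-Gr1 against 58.0 and 46.4 (log2 fold-change 3.52 ± 0.64 SE, edgeR adjusted p = 0.00874) and 740.1 and 710.2 with IgG at low flow. All 8 members were higher in anti-Gr1 replicate 1 than in replicate 2, and both lay above the high-flow pools. Ciita, the activator of these genes, had 3.51 and 2.16 FPKM against 0 and 0.0880 (log2 fold-change 5.82 ± 1.16 SE, edgeR adjusted p = 0.0115), and the cathepsin Ctss, which trims the invariant chain, 119 and 85.5 against 1.34 and 9.46 (log2 fold-change 4.14 ± 0.67 SE, edgeR adjusted p = 0.00617). H2-Ab1, H2-Eb1 and Ctss kept their calls whichever pool was left out, Cd74 lost its call without either high-flow pool (edgeR adjusted p up to 0.0626) and Ciita without high-flow replicate 1 (0.0658).

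Neutrophil markers gave another picture. Of 11 tested with anti-Gr1, 1 rose and none fell, with a median of 0.81, whereas 7 rose between IgG low flow and IgG high flow, with a median of 3.91, and 8 of 9 in untreated mice, with a median of 5.84. Over all genes tested the shares called higher were 7.42%, 22.8% and 24.2% in these 3 comparisons. The median with anti-Gr1 rested on the high-flow pools, as it was −0.015 without replicate 1 and 4.23 without replicate 2 of IgG high flow, and 2.25 against the PBS high-flow pools, with 0, 2 and 2 markers called. Cxcr2, the chemokine receptor of neutrophils, had 0.782 and 0.307 FPKM with anti-Gr1, 27.2 and 7.79 with IgG at low flow and 0 and 0.203 at high flow. The anti-Gr1 pools lay above the high-flow pools and below both IgG low-flow pools, and Cxcr2 was not called against high flow (log2 fold-change 2.26 ± 1.25 SE, edgeR adjusted p = 0.241). Its difference from IgG at low flow was −4.98 ± 1.09 on the log2 scale (SE, edgeR unadjusted p = 7.56e-04, adjusted p = 0.243). S100a8, a subunit of the calprotectin complex of neutrophils, had 4.10 and 15.6 FPKM with anti-Gr1, 151 and 36.7 with IgG at low flow and 1.96 and 9.45 at high flow, and S100a9, its partner, had 8.72 and 14.6, 177 and 44.5 and 0.473 and 11.9. For both genes the anti-Gr1 and high-flow ranges overlapped, and the differences from IgG at low flow were −3.20 and −3.21 on the log2 scale. The marker that rose was Il1r2, the decoy receptor of interleukin-1, with 4.35 and 3.87 FPKM with anti-Gr1, 92.0 and 47.2 with IgG at low flow and 0 and 0.306 at high flow (log2 fold-change 4.56 ± 1.00 SE, edgeR adjusted p = 0.0163). At −4.06 on the log2 scale, its difference between the antibodies was not called (edgeR adjusted p = 0.243), and the call against high flow was lost without high-flow replicate 1 (edgeR adjusted p = 0.0970).

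Anti-Gr1 also binds Ly6C. Ly6c2, the form of inflammatory monocytes, had 2.77 and 10.6 FPKM with anti-Gr1, 34.5 and 19.7 with IgG at low flow and 0.992 and 0.672 at high flow (log2 fold-change 2.95 ± 0.84 SE, edgeR adjusted p = 0.0417). Ly6c1, which endothelial cells express, had 464 and 209, 290.3 and 74.0 and 733 and 740.2 FPKM and was not called (log2 fold-change −1.22 ± 0.59 SE, edgeR adjusted p = 0.181), nor was Ly6a at 1289 and 612, 784 and 311 and 1044 and 953 (log2 fold-change −0.16 ± 0.43 SE, edgeR adjusted p = 0.831). Ly6c1 and Ly6c2 are near copies of each other, so the split of reads between them is uncertain. Of the platelet markers, Pf4 rose from 4.21 and 3.14 FPKM to 31.8 and 46.0 (log2 fold-change 3.34 ± 0.68 SE, edgeR adjusted p = 0.0130), and macrophages are known to express it as well. Ppbp did not pass the test, at 5.15 and 9.97 FPKM against 1.39 and 6.12 (log2 fold-change 0.93 ± 0.76 SE, edgeR adjusted p = 0.436), and Pf4 was 1 of 9 platelet markers called, against 7.42% of all genes called higher. Ly6c2 lost its call without anti-Gr1 replicate 2 or either high-flow pool (edgeR adjusted p up to 0.230), and Pf4 without either high-flow pool (up to 0.0728). Ly6g was not analysed here.

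Cell cycle genes had lower levels with anti-Gr1 than with IgG at low flow, and the differences did not pass adjustment. None of 26 DNA replication genes passed the test with anti-Gr1, with a median of 1.02, whereas 25 rose between IgG low and high flow (median 3.21) and 26 of 26 in untreated mice (median 3.22), against 7.42%, 22.8% and 24.2% of all genes called higher. Both anti-Gr1 pools lay below both IgG low-flow pools at all 26 genes, against 30% of all genes tested, and above both high-flow pools at 24, against 32.9%. Between anti-Gr1 and IgG at low flow 24 had an unadjusted p under 0.05 and were lower with anti-Gr1, against 10.4% of all genes tested, none of them called after adjustment in the joint edgeR fit, with a median of −2.14. Mcm5 (chr8:77633427-77652338), a subunit of the replicative helicase, had 9.61 and 14.5 FPKM with anti-Gr1, 44.1 and 76.2 with IgG at low flow and 5.56 and 3.79 at high flow (log2 fold-change 1.32 ± 0.87 SE, edgeR adjusted p = 0.327). Its difference between the antibodies was −2.29 ± 0.88 on the log2 scale (SE, edgeR unadjusted p = 0.0238, adjusted p = 0.246).

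At all 25 mitosis genes both anti-Gr1 pools lay below both IgG low-flow pools, and at 8 above both high-flow pools, against 30% and 32.9% of all genes tested. None of 25 passed the test with anti-Gr1 (median 0.12), 6 rose between IgG low and high flow (median 3.61) and 25 of 25 in untreated mice (median 4.88), against 7.42%, 22.8% and 24.2% of all genes called higher, so that the share in the IgG comparison was near that of all genes. The median with anti-Gr1 was 1.10 without replicate 1 and −0.22 without replicate 2 of IgG high flow, and −0.051 without replicate 1 and 0.53 without replicate 2 of anti-Gr1. Cdk1 (chr10:68799383-68815686), the kinase that starts mitosis, had 3.59 and 2.31 FPKM with anti-Gr1, 37.3 and 60.6 with IgG at low flow and 2.07 and 1.14 at high flow. The anti-Gr1 pools lay just above the high-flow pools (log2 fold-change 0.81 ± 1.63 SE, edgeR adjusted p = 0.767), and against IgG at low flow the difference was −4.05 ± 1.71 on the log2 scale (SE, edgeR unadjusted p = 0.0369, adjusted p = 0.262). Mki67, which encodes the proliferation marker Ki-67, had 0.970 and 0.499 FPKM with anti-Gr1, 7.91 and 10.9 with IgG at low flow and 0.828 and 0.629 at high flow (log2 fold-change −0.07 ± 1.49 SE, edgeR adjusted p = 0.982), with the anti-Gr1 pools on either side of the high-flow range. In the PBS liposome comparison, which holds no anti-Gr1, 13 of 26 DNA replication genes rose (median 2.32), against 19.6% of all genes, and none of 25 mitosis genes passed the test (median 1.34). Low-flow pools of other treatments, which entered the spread of the joint fit, varied widely in these genes. The summed level of the 25 mitosis genes was 94.0 and 49.1 FPKM with anti-Gr1, 658 and 1164 with IgG at low flow and 77.6 and 32.6 with IgG at high flow, but 146 and 1183 in the 2 PBS low-flow pools and 16.4 and 516 in the 2 PBS high-flow pools. The low-flow pools given anti-GPIba had 26.9 and 18.7 FPKM and those given clodronate liposomes 41.6 and 1042, so that 3 of these 4 pools lay below both anti-Gr1 pools. Against the PBS high-flow pools the median of the mitosis list was −1.80, and that of DNA replication 0.22. Of the G1 regulators, 1 of 18 rose, a share below the 7.42% of all genes called higher. It was Cdk4, from 72.9 and 64.0 FPKM to 155 and 194 (log2 fold-change 1.29 ± 0.38 SE, edgeR adjusted p = 0.0486), and it lost its call without any 1 pool (edgeR adjusted p up to 0.162).

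Promoters of these lists carry known cell cycle motifs. E2F sites, searched as TTTCCCGC and TTTGGCGC on both strands, were found in 8 of the 21 DNA replication promoters that could be matched (38.1%) and in 1.63% of all promoters, and in 0 of 21 mitosis promoters. The CHR motif of mitotic promoters, searched as TTTGAA on both strands, was found in 15 of 21 mitosis promoters (71.4%), in 3 of 21 DNA replication promoters (14.3%) and in 18.1% of all. The windows of Mcm5 (chr8:75109259-75109558, plus strand) and Cdk1 (chr10:69352863-69353162, minus strand) of GRCm38.p6 from RefSeq are shown, as the genes whose levels are given above, with the E2F match of Mcm5 and both CHR matches of Cdk1 in capitals.
Mcm5: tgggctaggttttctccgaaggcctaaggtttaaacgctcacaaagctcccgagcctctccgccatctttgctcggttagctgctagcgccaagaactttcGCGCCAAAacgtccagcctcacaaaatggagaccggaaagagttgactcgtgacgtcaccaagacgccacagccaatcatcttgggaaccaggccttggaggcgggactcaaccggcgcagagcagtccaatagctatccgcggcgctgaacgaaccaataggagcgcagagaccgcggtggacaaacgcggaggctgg
Cdk1: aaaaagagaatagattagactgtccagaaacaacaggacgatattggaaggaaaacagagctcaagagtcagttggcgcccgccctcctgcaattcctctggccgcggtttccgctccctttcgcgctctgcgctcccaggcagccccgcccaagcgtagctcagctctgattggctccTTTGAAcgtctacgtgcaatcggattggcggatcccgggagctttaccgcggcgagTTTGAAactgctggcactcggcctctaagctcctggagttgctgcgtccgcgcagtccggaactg

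**Figure D4:**
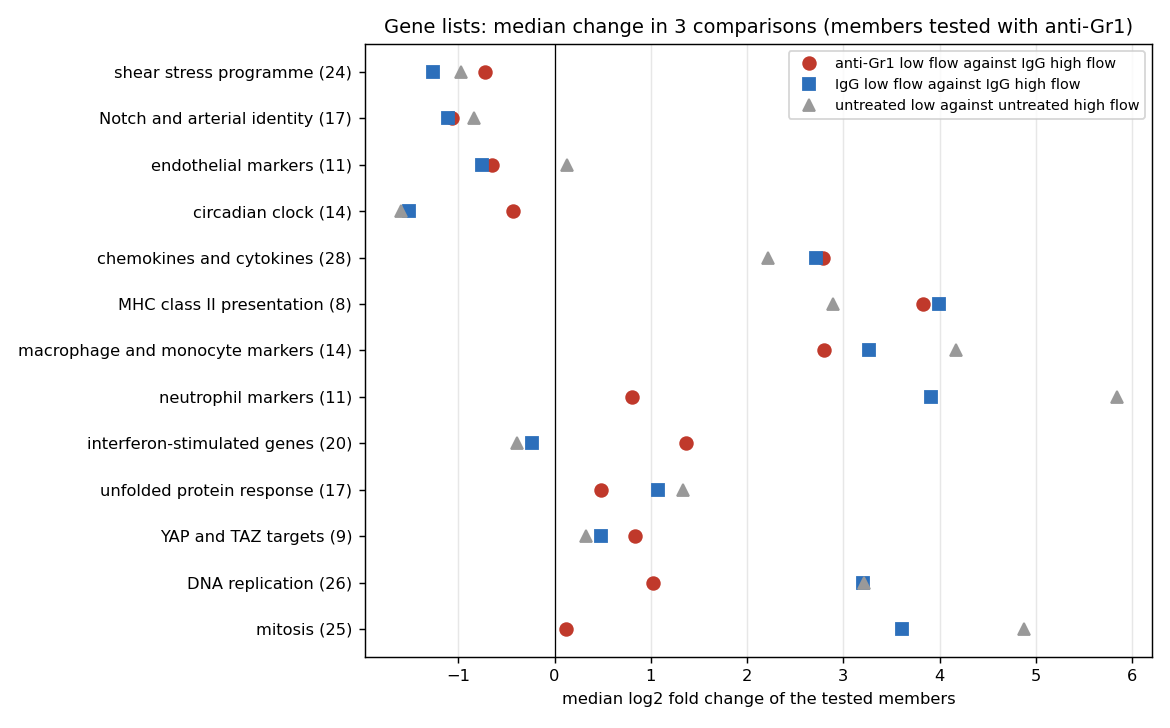
Median log2 fold-change (x axis) of the tested members of 13 gene lists (y axis, with the number tested with anti-Gr1) in 3 comparisons, of which the 2 antibody comparisons share their high-flow pools. Members without counts at high flow are entered at their lower bound. The medians with anti-Gr1 lie at 1.02 for DNA replication and 0.12 for mitosis, against 3.22 and 4.88 in untreated mice, and at 1.37 for interferon-stimulated genes, against −0.39.

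Most interferon-stimulated genes had higher levels with anti-Gr1 than with IgG at low flow, without passing adjustment. Of 20 tested, 4 rose against high flow and none fell, with a median of 1.37, whereas between IgG low and high flow 2 rose (median −0.23), against 7.42% and 22.8% of all genes called higher. Between anti-Gr1 and IgG at low flow 13 had an unadjusted p under 0.05 and were higher with anti-Gr1, against 7.75% of all genes tested, none of them called after adjustment in the joint edgeR fit, with a median of 1.35. Against high flow 1 rose without anti-Gr1 replicate 1 (median 0.72) or without high-flow replicate 2, 2 without high-flow replicate 1 and 7 without anti-Gr1 replicate 2 (median 1.75). Both anti-Gr1 pools lay above both IgG low-flow pools at 15 of the 20 genes, against 21.1% of all genes tested. The summed level of the 20 genes was 1680.4 and 722 FPKM with anti-Gr1 and 658 and 369 with IgG at low flow, but also 753 and 655 with anti-GPIba and 938 and 594 with clodronate liposomes, so that anti-Gr1 replicate 2 lay within the range of these other depleted pools. Untreated pools, under another prefix, had 304, 300 and 697 FPKM at low flow and 740, 732 and 688 at high flow. Sham-operated pools under that prefix had 908, 2528 and 731, the second above both anti-Gr1 pools. Ifit1 (chr19:34715361-34724499) and Ifit3, antiviral proteins named after their values were seen, had 54.0 and 17.1 and 214 and 66.3 FPKM with anti-Gr1. With IgG at low flow they had 6.72 and 1.85 and 38.0 and 16.5 FPKM, and at high flow 12.6 and 8.34 and 62.5 and 48.9. Both anti-Gr1 pools lay above both high-flow pools and both IgG low-flow pools below them, but neither gene was called against high flow (log2 fold-change 1.67 ± 0.63 SE, edgeR adjusted p = 0.0993 for Ifit1 and log2 fold-change 1.24 ± 0.61 SE, edgeR adjusted p = 0.190 for Ifit3). Usp18, which damps interferon signalling, had 23.5 and 9.87 FPKM with anti-Gr1, 6.08 and 3.91 with IgG at low flow and 6.05 and 4.38 at high flow (log2 fold-change 1.59 ± 0.47 SE, edgeR adjusted p = 0.0464). Cxcl10, an interferon-induced chemokine, had 39.7 and 6.77, 5.55 and 1.43 and 0.443 and 0 FPKM in the same order (log2 fold-change 6.61 ± 1.92 SE, edgeR adjusted p = 0.0444). Bst2 had 306 and 188 against 124 and 62.5 FPKM (log2 fold-change 1.33 ± 0.34 SE, edgeR adjusted p = 0.0286) and Irf8, a factor of myeloid cells, 7.48 and 7.03 against 0.0303 and 0.520 (log2 fold-change 4.59 ± 0.83 SE, edgeR adjusted p = 0.00841). All but 1 of the 20 genes were higher in anti-Gr1 replicate 1 than in replicate 2. Usp18 and Cxcl10 lost their calls without anti-Gr1 replicate 1 or either high-flow pool (edgeR adjusted p up to 0.274 and 0.169), Bst2 without anti-Gr1 replicate 1 or high-flow replicate 2 (up to 0.139), and Irf8 kept it throughout.

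The interferon-stimulated response element, searched as GAAA, any 2 bases and GAAA on both strands, was found in 9 of the 16 interferon-stimulated promoters that could be matched (56.2%) and in 3.49% of all promoters. That of Ifit1 (chr19:34640639-34640938 of GRCm38.p6, plus strand, from RefSeq) is shown because Ifit1 had the largest difference of the list between the antibodies among genes with an unadjusted p under 0.05. It holds 2 matches, in capitals, which read on the other strand.
Ifit1: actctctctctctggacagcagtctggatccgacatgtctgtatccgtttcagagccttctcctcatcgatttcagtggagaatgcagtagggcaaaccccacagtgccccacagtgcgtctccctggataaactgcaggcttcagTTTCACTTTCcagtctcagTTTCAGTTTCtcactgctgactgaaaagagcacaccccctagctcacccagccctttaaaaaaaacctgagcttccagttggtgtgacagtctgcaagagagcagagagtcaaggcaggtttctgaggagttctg

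BMP and TGF-beta signalling had 3 of 17 members lower, against 5.66% of all genes tested, and none higher, with a median of −0.51. Only 1 was lower without anti-Gr1 replicate 1 or without either high-flow pool, 5 were lower without anti-Gr1 replicate 2, and the median against the PBS high-flow pools was 0.24. Id1, a direct target of BMP receptors, had 46.5 and 28.2 FPKM with anti-Gr1, 89.7 and 115 with IgG at low flow and 163 and 161 at high flow. The 3 groups did not overlap, with anti-Gr1 lowest, and Id1 fell with a log2 fold-change of −2.20 ± 0.31 (SE, edgeR adjusted p = 0.00526) against high flow. Between IgG low and high flow the log2 fold-change −0.75 ± 0.30 SE, edgeR adjusted p = 0.0657, was not called, and between the antibodies at low flow the difference was −1.45 ± 0.31 on the log2 scale (SE, edgeR unadjusted p = 5.54e-04, adjusted p = 0.243). Smad7, an inhibitor of the pathway, had 5.42 and 13.6 against 26.9 and 24.7 FPKM (log2 fold-change −1.48 ± 0.44 SE, edgeR adjusted p = 0.0486), and Tgfb1, a ligand of the pathway, 6.51 and 15.5 against 30.8 and 27.5 (log2 fold-change −1.45 ± 0.43 SE, edgeR adjusted p = 0.0468). Against PBS high-flow pools Smad7 had a log2 fold-change of 0.60. Id1 was called whichever pool was left out, and Smad7 and Tgfb1 lost their calls without anti-Gr1 replicate 1 or either high-flow pool (edgeR adjusted p up to 0.190 and 0.186).

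The 2 anti-Gr1 pools did not agree in all programmes. Of 8743 genes at 5 FPKM or more in either pool, 89 were at least 4-fold higher in replicate 2 and 20 in replicate 1, compared with 1 and 35 of 8605 between the IgG low-flow pools. Such splits were not particular to anti-Gr1. Of genes at that level, 1.25% differed at least 4-fold between its pools. The share was higher between the PBS low-flow pools (1.86%), the PBS high-flow pools (1.37%) and the clodronate pools (3.85%). It was lower between the IgG low-flow pools (0.418%), the IgG high-flow pools (0.645%) and the anti-GPIba pools (0.546%). Replicate 2 was the higher pool at 15 of 21 angiopoietin, VEGF and tip cell genes and at 8 of 9 YAP and TAZ targets. It was the higher pool at 1 of 20 interferon-stimulated genes and at 2 of 25 mitosis genes. For DNA replication the count was 15 of 26, and for chemokines and cytokines 19 of 28. The share of all genes higher in replicate 2 was not computed. These counts, and those above for MHC class II and interferon-stimulated genes, therefore have no reference value. Esm1, a marker of tip cells at the front of vessel sprouts, had 0.174 FPKM in replicate 1 and 42.0 in replicate 2, against 91.3 and 86.7 with IgG at low flow and no counts at high flow. Ankrd1, a target of YAP, had 0.594 and 36.9 FPKM, against 20.4 and 66.9 with IgG at low flow and 0.1004 and 0.680 at high flow. For both genes, named after their values were seen, replicate 1 lay below both IgG low-flow pools, and neither was called (edgeR adjusted p = 0.119 and 0.0834).

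Several genes with such a split still passed the test. Pgf, a ligand of the VEGF receptor Flt1, had 7.52 and 66.8 FPKM with anti-Gr1 against 0 and 0.876 at high flow (log2 fold-change 6.31 ± 1.45 SE, edgeR adjusted p = 0.0194), and Adm, the vasodilator adrenomedullin, 4.08 and 22.9 against 1.58 and 0.594 (log2 fold-change 3.61 ± 1.08 SE, edgeR adjusted p = 0.0491). In both genes replicate 2 was the higher pool. Thbs1, an adhesive matrix protein that limits vessel growth, had 394 and 2234 FPKM against 185 and 195 (log2 fold-change 2.76 ± 0.70 SE, edgeR adjusted p = 0.0270). Ctgf, a secreted target of YAP, had 1213 and 4505 against 62.2 and 122 FPKM (log2 fold-change 4.91 ± 0.88 SE, edgeR adjusted p = 0.00840). The other YAP and TAZ targets called were Axl, a receptor kinase, at 10.7 and 15.2 against 4.07 and 6.54 FPKM (log2 fold-change 1.22 ± 0.34 SE, edgeR adjusted p = 0.0400), and Amotl1, an inhibitor of YAP, which fell from 15.1 and 11.6 to 8.10 and 8.38 (log2 fold-change −0.76 ± 0.22 SE, edgeR adjusted p = 0.0420). Fosl1, a subunit of the transcription factor AP-1, had 0.844 and 38.5 against 0.0521 and 0.00424 FPKM, 752-fold (95% counting interval 135 to 29718) higher (edgeR adjusted p = 0.0430). Without anti-Gr1 replicate 2, Pgf, Adm, Thbs1 and Fosl1 were no longer called, and without IgG high-flow replicate 1 these 4 genes and Ctgf were lost, with edgeR adjusted p of up to 0.293 over these fits. Axl was lost without anti-Gr1 replicate 2 or high-flow replicate 1 (edgeR adjusted p up to 0.205) and Amotl1 without any 1 pool (up to 0.203), and against PBS high-flow pools Amotl1 had a log2 fold-change of 0.52. Of the 8 smooth muscle markers, 4 had a log2 fold-change above 0 against high flow, with a median of 0.12, or −0.17 without anti-Gr1 replicate 2. Acta2 had 715 and 2843 FPKM against 148 and 278 (log2 fold-change 3.02 ± 0.66 SE, edgeR adjusted p = 0.0161) and Tagln 332 and 799 against 56.8 and 63.2 (log2 fold-change 3.19 ± 0.51 SE, edgeR adjusted p = 0.00594), and these were the 2 of 8 smooth muscle markers called, against 7.42% of all genes called higher. Acta2 was lost without anti-Gr1 replicate 2 or high-flow replicate 1 (edgeR adjusted p up to 0.114) and Tagln without high-flow replicate 1 (0.0508). The part of smooth muscle RNA in the split between the pools was not tested.

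**Figure D5:**
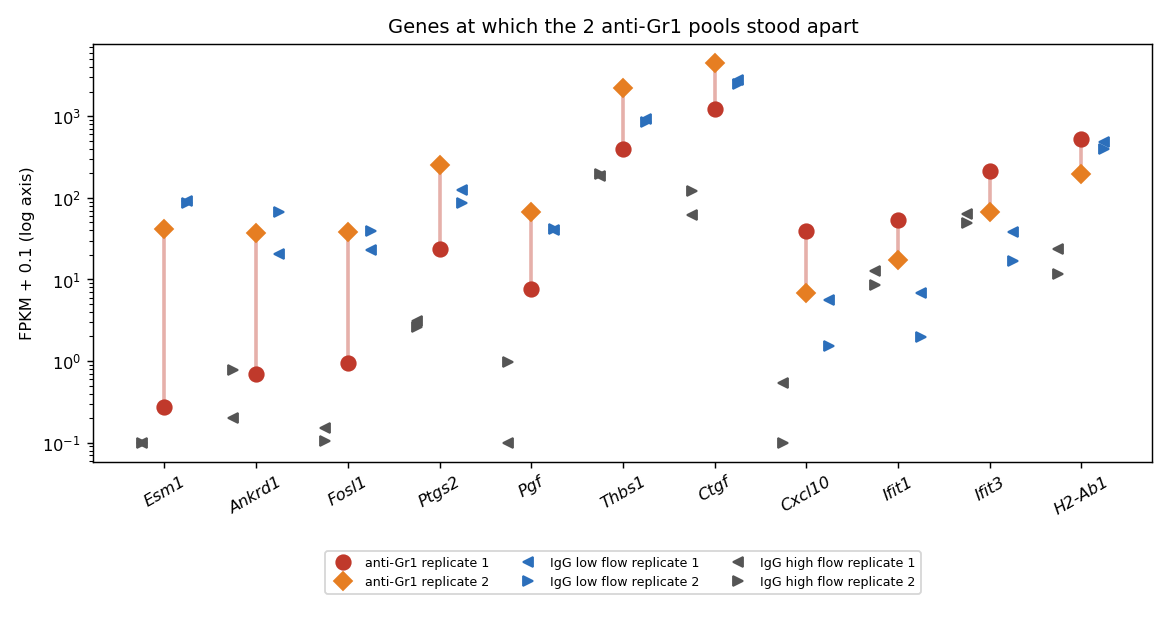
Level (FPKM + 0.1, log y axis) of 11 genes (x axis) in the 2 anti-Gr1 pools, joined by a line, with the IgG low-flow pools on the right and the IgG high-flow pools on the left of each. Esm1, at 0.174 and 42.0 FPKM, and Ankrd1, at 0.594 and 36.9, show the widest gaps, and from Cxcl10 to H2-Ab1 replicate 1 is the higher pool.

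Matrix and protease genes were mixed. Of 27 matrix and integrin genes 2 rose and 5 fell (median −0.10), against 7.42% and 5.66% of all genes tested, and of 12 matrix proteases and inhibitors 3 rose and 1 fell (median 1.43). Without anti-Gr1 replicate 2 no matrix and integrin gene rose and 10 fell (median −0.80), and without anti-Gr1 replicate 1 there was 1 in each direction (median 0.11). Without high-flow replicate 1 only 1 fell, without replicate 2 only 3 fell, and none rose in either case, while the median against the PBS high-flow pools was 0.83. No protease or inhibitor was called without high-flow replicate 1 (median 1.12). Eln, which encodes elastin, had 163 and 357 FPKM against 1799.7 and 1019.5 (log2 fold-change −2.48 ± 0.64 SE, edgeR adjusted p = 0.0304). The basement membrane integrin subunit Itgb4 had 13.5 and 24.4 against 84.4 and 69.5 FPKM (log2 fold-change −2.07 ± 0.49 SE, edgeR adjusted p = 0.0216), and the elastic fibre protein Fbln2 107 and 113 against 400.5 and 354 (log2 fold-change −1.85 ± 0.39 SE, edgeR adjusted p = 0.0140). All 3 were lower in both anti-Gr1 pools, as was the fibrillar collagen Col5a1, at 13.96 and 12.2 against 35.9 and 31.0 FPKM (log2 fold-change −1.43 ± 0.25 SE, edgeR adjusted p = 0.00752). Fn1, which encodes fibronectin, was not called, at 41.6 and 127 FPKM against 107 and 135 (log2 fold-change −0.56 ± 0.50 SE, edgeR adjusted p = 0.472). The macrophage elastase Mmp12 had 11.4 and 4.09 against 0 and 0.0849 FPKM (log2 fold-change 7.29 ± 1.35 SE, edgeR adjusted p = 0.00908), and the collagenase Mmp13 4.75 and 3.14 against 0 and 0.0581, 131-fold (95% counting interval 35.9 to 1084) higher (edgeR adjusted p = 0.00914). Timp1, an inhibitor of such enzymes, had 49.4 and 104 against 16.3 and 18.1 FPKM (log2 fold-change 2.11 ± 0.48 SE, edgeR adjusted p = 0.0186). Tnc, an injury-induced matrix protein, was at the edge of detection, at 0.102 and 0.142 FPKM against no counts, at least 3.51-fold higher (edgeR adjusted p = 0.0368). Adamts1, a protease of matrix proteoglycans, fell from 46.4 and 69.0 FPKM to 16.0 and 25.6 (log2 fold-change −1.53 ± 0.41 SE, edgeR adjusted p = 0.0341). Col5a1 was called whichever pool was left out. The other 8 lost their calls in at least 1 such fit, all of them without IgG high-flow replicate 1, with highest edgeR adjusted p from 0.0606 for Mmp13 to 0.165 for Adamts1.

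Metabolic and stress lists had 1 or 2 called members each, shares near the 7.42% of all genes called higher. Of 17 glycolysis genes 1 rose, Pfkp, from 17.0 and 17.2 FPKM to 36.5 and 40.7 (log2 fold-change 1.11 ± 0.22 SE, edgeR adjusted p = 0.0110), and 8 rose between IgG low and high flow, against 22.8% of all genes. Of 11 genes of fatty acid uptake 1 rose, Angptl4, an inhibitor of lipoprotein lipase, with 22.9 and 48.0 FPKM against 0.880 and 0.167 (log2 fold-change 6.06 ± 0.88 SE, edgeR adjusted p = 0.00543) and 83.8 and 106 with IgG at low flow. Of 17 genes of the unfolded protein response 2 rose, with a median of 0.49, whereas 11 rose between IgG low and high flow (median 1.07) and 14 in untreated mice (median 1.34), against 22.8% and 24.2% of all genes. Xbp1, one of its transcription factors, had 326 and 256 against 161 and 151 FPKM (log2 fold-change 0.83 ± 0.22 SE, edgeR adjusted p = 0.0324), and Chac1 9.24 and 7.23 against 0 and 1.45 (log2 fold-change 3.38 ± 0.98 SE, edgeR adjusted p = 0.0444). Of the other 15 members none passed the test.

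Of 14 circadian clock genes 1 fell with anti-Gr1, a share near the 5.66% of all genes called lower. It was Per2, from 21.1 and 30.4 FPKM to 8.33 and 11.6 (log2 fold-change −1.44 ± 0.42 SE, edgeR adjusted p = 0.0444), and the median of the list was −0.44. Against the PBS high-flow pools that median was −0.00085, and without anti-Gr1 replicate 2 it was −0.65. Between IgG low and high flow 8 fell (median −1.51), and 9 of 13 in untreated mice (median −1.60), against 17.7% and 23.4% of all genes. Between the antibodies at low flow 8 clock genes had an unadjusted p under 0.05 and were higher with anti-Gr1, against 7.75% of all genes tested, none called after adjustment in the joint edgeR fit. The summed level of the list was 477 and 374 FPKM with anti-Gr1 and 238 and 133 with IgG at low flow, and 505 and 457 with anti-GPIba and 460.0 and 216 with clodronate liposomes. Immediate early genes, which are switched on within minutes of a stimulus, had 5 of 15 members higher and 1 lower (median 1.08), against 7.42% and 5.66% of all genes tested. None was called without high-flow replicate 1, and 1 was called, as higher, without high-flow replicate 2. Fos had 169 and 28.9 FPKM with anti-Gr1, 273 and 27.6 with IgG at low flow and 4.89 and 3.09 at high flow (log2 fold-change 4.53 ± 1.09 SE, edgeR adjusted p = 0.0232), and Egr1 179 and 63.5, 212 and 41.9 and 26.9 and 17.9 (log2 fold-change 2.35 ± 0.69 SE, edgeR adjusted p = 0.0455). In both low-flow groups the 2 pools were far apart, with replicate 1 the higher. Egr2 had 6.17 and 6.24 against 0.260 and 0.417 FPKM (log2 fold-change 4.11 ± 0.80 SE, edgeR adjusted p = 0.0112), and Jund fell from 198 and 239 to 117 and 126 (log2 fold-change −0.92 ± 0.24 SE, edgeR adjusted p = 0.0326), but had a log2 fold-change of 0.23 against PBS high-flow pools. Per2 and Jund lost their calls whichever pool was left out, and Xbp1 and Chac1 also without anti-Gr1 replicate 1. Without IgG high-flow replicate 1, none of Pfkp, Xbp1, Chac1, Per2, Fos, Egr1, Egr2 and Jund was called, with adjusted p over all leave-one-out fits of up to 0.231, while Angptl4 was called in each. The fibroblast markers Lum, at 82.5 and 31.3 FPKM against 10.4 and 15.7 (log2 fold-change 2.03 ± 0.46 SE, edgeR adjusted p = 0.0181), and Pi16, at 43.3 and 36.6 against 198 and 149 (log2 fold-change −2.19 ± 0.42 SE, edgeR adjusted p = 0.0106), moved in opposite directions, and lost their calls without high-flow replicate 1, Lum also without anti-Gr1 replicate 1 (edgeR adjusted p up to 0.120 and 0.0592). The skeletal muscle actin Acta1 had 13.9 and 4.09 FPKM against 0.442 and 0.114 (log2 fold-change 4.92 ± 1.34 SE, edgeR adjusted p = 0.0357) and lost its call without anti-Gr1 replicate 1 or either high-flow pool (edgeR adjusted p up to 0.154). It was the 1 called of 5 thyroid and skeletal muscle markers tested, against 7.42% of all genes called higher. At all 8 fibroblast markers both anti-Gr1 pools lay above both IgG low-flow pools, against 21.1% of all genes tested, with a median difference of 1.70 on the log2 scale, and 5 had an unadjusted p under 0.05 in edgeR, against 7.75%. These markers took 0.0967% and 0.0697% of counts with anti-Gr1, 0.0368% and 0.0276% with IgG at low flow and 0.112% and 0.106% with IgG at high flow. T and B cell, red cell and fat cell markers had no called member.

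The splicing regulators, of which Rbfox2 is the factor the study followed, had 1 of 19 members higher, a share below the 7.42% of all genes called higher. It was Celf2, at 7.62 and 4.91 FPKM against 1.30 and 2.90 (log2 fold-change 1.49 ± 0.39 SE, edgeR adjusted p = 0.0317). Rbfox2 had 2.99 and 3.92 FPKM with anti-Gr1, 4.72 and 5.25 with IgG at low flow and 4.41 and 4.18 at high flow. The anti-Gr1 pools lay below both high-flow pools and the IgG low-flow pools above them, and no difference was called (log2 fold-change −0.37 ± 0.33 SE, edgeR adjusted p = 0.472 against high flow). Celf2 lost its call without anti-Gr1 replicate 1 or high-flow replicate 1 (edgeR adjusted p up to 0.152). Entpd1, which breaks down the platelet activator ADP, fell from 98.8 and 108 FPKM to 38.1 and 32.2 (log2 fold-change −1.63 ± 0.22 SE, edgeR adjusted p = 0.00526), and it was called whichever pool was left out.

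The 8 genes in each direction with the largest fitted log2 fold-changes with anti-Gr1 were taken from those called, with pools that did not overlap and a mean of 5 FPKM or more in the higher group. For genes without counts at high flow the fitted value depends on the prior count, so their place in this order is uncertain and other genes may have changed more. Besides Il1b, Cxcl5 and Fosl1, the higher genes were Emr4, Slamf9, Bcl2a1b, Lst1 and 4833422F24Rik, all without counts in either IgG high-flow pool. Emr4, a receptor of the macrophage F4/80 family, had 4.62 and 6.74 FPKM with anti-Gr1, at least 81.8-fold higher (edgeR adjusted p = 0.00556). Slamf9, a receptor of myeloid cells, had 18.3 and 4.76 FPKM, at least 49.8-fold higher (edgeR adjusted p = 0.00587). Bcl2a1b, a survival factor of leukocytes, had 12.6 and 11.2, at least 31.7-fold higher (edgeR adjusted p = 0.00593), and reads of it may be shared with its near copies. Lst1 had 6.24 and 5.12 FPKM, at least 6.67-fold higher, and 4833422F24Rik 7.48 and 2.66, at least 39.6-fold higher. These are genes known mostly from leukocytes, save the last, whose role is not given here. With IgG at low flow the 5 genes had 7.40 and 10.2, 6.37 and 3.73, 30.005 and 10.5, 18.5 and 8.48 and 10.2 and 13.0 FPKM.

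The lower genes chosen were Stra6, Serpina1b, Serpina1d, Vipr1, Klk10, Prrt4, Nxnl2 and Stmn3. Klk10, a secreted kallikrein-related protein, was the most abundant, with 31.1 and 18.8 FPKM with anti-Gr1 and 899.7 and 796 at high flow (log2 fold-change −5.17 ± 0.83 SE, edgeR adjusted p = 0.00594). With IgG at low flow it had 48.8 and 6.95 FPKM. Prrt4, a membrane protein, had 1.91 and 2.88 against 81.3 and 73.9 FPKM (log2 fold-change −5.08 ± 0.74 SE, edgeR adjusted p = 0.00556), and Vipr1, a receptor of vasoactive intestinal peptide, 0.917 and 0.494 against 21.1 and 27.8 (log2 fold-change −5.19 ± 0.86 SE, edgeR adjusted p = 0.00658). Stra6, a retinol transporter, fell from 8.13 and 9.11 FPKM to 0.0865 and 0.0969 (log2 fold-change −6.58 ± 1.51 SE, edgeR adjusted p = 0.0195). Serpina1d, an antitrypsin of a family of near-identical copies, had 0.899 and 0.862 against 30.3 and 37.6 FPKM (log2 fold-change −5.30 ± 0.97 SE, edgeR adjusted p = 0.00875), and Serpina1b 0.436 and 0.00843 against 13.1 and 15.6 (log2 fold-change −6.04 ± 1.17 SE, edgeR adjusted p = 0.0106), and the split of reads between the copies is uncertain. Nxnl2 and Stmn3 had log2 fold-changes of −4.08 and −4.03. In untreated mice the log2 fold-changes of Klk10, Prrt4, Vipr1, Serpina1b and Serpina1d were −6.77, −5.67, −4.00, −7.25 and −8.31, all called. Untreated values of Stra6, Nxnl2, Stmn3 and the higher genes chosen are not given here, so these 5 do not stand for the whole set. Klk10, Prrt4, Vipr1 and both antitrypsins, like Emr4, Slamf9 and Bcl2a1b, were called whichever pool was left out. Lst1 and Nxnl2 lost their calls without high-flow replicate 1 (edgeR adjusted p = 0.0552 and 0.0535), 4833422F24Rik without either high-flow pool (up to 0.0701) and Stra6 and Stmn3 without either anti-Gr1 pool or high-flow replicate 1 (up to 0.0986 and 0.0937).

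Where anti-Gr1 and IgG were furthest apart at low flow was also described by rule, among genes called between IgG low and high flow, with an unadjusted p under 0.05 between the antibodies and pools that did not overlap. None of them passed adjustment (edgeR adjusted p of 0.243 to 0.268). On the higher side were Serpina3g, Col1a1, Gbp4, Tgfbr3 and Cp. Serpina3g, a protease inhibitor induced by interferon, had 43.3 and 6.69 FPKM with anti-Gr1, 4.57 and 2.49 with IgG at low flow and 0.700 and 0.0395 at high flow, and was called against high flow (log2 fold-change 6.00 ± 1.15 SE, edgeR adjusted p = 0.0102). Cp, the copper carrier ceruloplasmin, had 343 and 257, 94.0 and 52.2 and 218 and 219 FPKM in the same order, with anti-Gr1 above and IgG below the high-flow pools. Gbp4, an interferon-induced GTPase with close paralogs, had 91.8 and 31.5, 22.6 and 5.76 and 89.9 and 39.4 FPKM, and Tgfbr3, a coreceptor of TGF-beta, 10.1 and 22.6, 5.50 and 2.52 and 14.9 and 17.3. For both, the anti-Gr1 pools overlapped the high-flow range, as did those of the fibrillar collagen Col1a1, at 3.32 and 16.9, 1.65 and 2.76 and 10.2 and 11.4. The part of the higher fibroblast marker share with anti-Gr1 in these differences was not tested. On the lower side were Cxcr2, Cd177, Lrr1, Shcbp1 and Nek2. Cd177, a surface protein of neutrophils, had 0.176 and 0.297, 6.26 and 4.66 and 0 and 0.686 FPKM, and Nek2, a mitotic kinase, 0.928 and 0.270, 9.30 and 14.6 and 0.0267 and 0. Shcbp1, known from dividing cells, had 1.25 and 1.25, 20.2 and 35.9 and 0 and 0.813 FPKM. Lrr1, which takes part in unloading the replicative helicase, had 0.0418 and 0.281, 4.03 and 6.89 and 0 and 0.0541 FPKM. None of these 5 was called between anti-Gr1 and high flow. The rule used the same IgG low-flow values for both of its conditions. Anti-Gr1 levels near those of high flow are therefore favoured by the choice, on the higher and on the lower side.

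Genes at which the antibodies placed low flow on opposite sides of high flow were few. At 79 of 13401 genes (0.590%) both anti-Gr1 pools lay above and both IgG low-flow pools below the high-flow pools, and at 70 (0.522%) the reverse was found. Of these, 57 and 48 had an unadjusted p under 0.05 between the antibodies in the joint edgeR fit, in which none was called.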

How the data were processed

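Expected counts and RPKM per gene were deposited by the authors in 1 table. They came from STAR 2.5.1b and RSEM 1.2.15 per the submitters' processing notes, with NCBIM37 gene models, and TopHat is also named in the study's methods. RSEM shares reads among gene copies. Expected counts were rounded, the unnamed entry (0.0442% to 0.0609% of counts) was left out, and 167 of 204 value columns, which belong to other samples or measures, were not used. FPKM were recomputed from the authors' deposited counts and effective lengths, with a median ratio to the deposited RPKM of 0.929 to 0.953.

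All 7 groups of treated mice, 2 pools each, were fitted jointly in edgeR 4.0.16 under R 4.3.3 (filterByExpr, TMM, quasi-likelihood test, Benjamini-Hochberg adjustment, threshold 0.05), and untreated pools separately, from the first of their 2 runs. The procedure was tested on simulated data. An exact permutation test of 2 against 2 cannot go below p = 0.333. Alternatives were DESeq2 1.42.0, other size factors, no filter, the 2 groups alone, a replicate block, other high-flow controls and each pool left out. No count at high flow was entered as 3 counts per library. Total counts set the precision, and intervals cover counting error only.

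Genes were named by rule: key genes, up to 4 per direction of each list, the 8 largest changes per direction and the 5 largest differences per direction between antibodies, besides those said to be named after their values were seen. The members and lists were chosen with earlier results of these data known. 1 gene that the rule names is not reported here.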

Additional observations from a re-analysis of the deposited data

Results flagged for a closer look

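At 4 named genes the anti-Gr1 and the IgG low-flow pools lay on opposite sides of both IgG high-flow pools. Anti-Gr1 pools lay above and IgG pools below for Ifit1, with a difference between the antibodies of 3.05 ± 0.67 on the log2 scale (SE, edgeR unadjusted p = 7.43e-04, adjusted p = 0.243), for Ifit3, with 2.36 ± 0.64 on the log2 scale (SE, edgeR unadjusted p = 0.00327, adjusted p = 0.243), and for Cp, with 2.05 ± 0.54 on the log2 scale (SE, edgeR unadjusted p = 0.00271, adjusted p = 0.243). For Rbfox2 the order was reversed, with −0.51 ± 0.33 on the log2 scale (SE, edgeR unadjusted p = 0.153, adjusted p = 0.417). None of these differences was called. The 4 genes were picked by these positions, which favours a difference between the antibodies.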

How the results depend on the processing

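Of 1753 genes called between anti-Gr1 low flow and IgG high flow, all were among the 2874 of DESeq2, while 267 genes were called with the 2 groups alone, 758 against PBS high-flow pools and 432 to 1335 with 1 pool left out. Of these, 56.8% were higher in the reported fit, 70.8% without anti-Gr1 replicate 1 and 44.0% without replicate 2. Between IgG low and high flow the range with 1 pool left out was 2141 to 4231, and between the antibodies at low flow 225 genes were called with the 2 groups alone and 142 by DESeq2. In untreated mice 3517 genes also passed a log2 fold-change of 1. Pools with the same replicate number deviated together in some pairs of groups only, with a correlation over 0.1 in 7 of 21 pairs (median 0.024, range −0.155 to 0.379), so the numbers were not taken to pair the pools, and with the replicate block 2210 genes were called in the anti-Gr1 comparison. As shares of summed FPKM, endothelial markers took 0.679% with anti-Gr1 and 1.37% at high flow, neutrophil markers 0.00839% and 0.00883% and macrophage markers 0.211% and 0.0361%. Of 101 named genes called, 33 kept the call with each of the 4 pools left out in turn. Against PBS high-flow pools the log2 fold-change changed sign for Thbd (0.028), Fn1 (1.41), Cdk1 (−1.23), Cdh5 (0.37), Ppbp (−0.87), Rbfox2 (0.24), Tjp1 (0.026), Smad7 (0.60), Amotl1 (0.52), Jund (0.23), Col1a1 (2.20), Tgfbr3 (1.03), Lrr1 (−1.27), Cd177 (0.73), Shcbp1 (−2.50), Nek2 (−3.17) and Nr2f2 (−0.021). Against IgG and PBS high-flow pools together the log2 fold-change changed sign for Fn1 (0.42), Cdk1 (−0.21), Col1a1 (1.03), Tgfbr3 (0.50), Cd177 (0.047) and Shcbp1 (−0.50). With the replicate block the log2 fold-change changed sign for Mki67 (0.039) and Tgfbr3 (0.019). With 1 pool left out it ranged from −1.77 to 0.074 for Thbd, −1.66 to 0.056 for Fn1, −0.55 to 0.30 for Mki67, −0.62 to 2.29 for S100a8, −0.12 to 4.53 for S100a9, −0.72 to 0.25 for Ly6a, −1.82 to 0.63 for Col1a1, −1.04 to 0.52 for Gbp4, −0.80 to 0.47 for Tgfbr3 and −1.62 to 6.29 for Cd177. The cause of these differences was not tested.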
